A study of Mus musculus with 6 samples.

Results

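The BCL2 family apoptosis regulators examined here were 10 genes chosen by symbol: the anti-apoptotic Bcl2, Bcl2l1 and Mcl1, the effectors Bax and Bak1, and the BH3-only genes Bcl2l11, Bbc3, Pmaip1, Bid and Bmf. All 10 were among the 16081 genes listed in each sample, and 9 had enough counts to be tested. Poly(A)-selected RNA was sequenced from Lewis cells, a line labelled as mouse lung adenocarcinoma, after 24 hours with the vehicle DMSO (3 samples) or with SD70, an inhibitor of the histone demethylase KDM4C (3 samples). The labels give both groups the same line and culture medium and name no genetic change, so the drug was the labelled difference between them. The dose of SD70 in this experiment is not given in the sources used here. The methods state in general that experiments were done repeatedly and independently, but nothing says of these samples that they came from separate cultures, so p-values measure the spread between these samples, which may be technical.

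The BCL2 family decides whether the outer membrane of the mitochondrion stays sealed. BAX and BAK1 form pores in that membrane and let cytochrome c out, which starts the caspase cascade. BCL2, BCL-XL (the product of Bcl2l1) and MCL1 hold them in check, and the BH3-only proteins, which share a single short helix with the rest of the family, bind the anti-apoptotic members or activate the effectors directly. BIM (Bcl2l11), PUMA (Bbc3), NOXA (Pmaip1), BID and BMF are BH3-only proteins that are induced, cleaved or released by different kinds of stress.

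Between 15276744 and 17060424 counts were assigned to genes per sample, and samples of a group had a Spearman correlation of at least 0.997 across genes, and no library stood apart. Of the epithelial and lung adenocarcinoma markers, Krt8 was abundant with 3916 ± 105 normalized counts with DMSO and Krt18 was low with 87.1 ± 11.3 (SD, n = 3 each), whereas Epcam, Cdh1, Krt19 and Sftpc had at most 1 count in any sample, and Nkx2-1 was not analysed here. Krt8 fell by 0.55 and Krt18 by 1.22 on the log2 scale with SD70 (adjusted p = 3.28e-11 and 2.97e-07 from edgeR). The fibroblast and mesenchymal markers moved in both directions: of 5 listed, 3 were tested, Vim fell by 0.47 and Pdgfra by 1.00 on the log2 scale, and Pdgfrb rose by 1.54 (adjusted p = 6.69e-10, 9.33e-17 and 2.09e-17 from edgeR), while Col1a1 and Col1a2 were near 0. Their sum, most of it Vim, was between 66440 and 73910 normalized counts with DMSO and between 49020 and 53590 with SD70. The part of these shifts in the results for the family was not tested. The 4 immune markers in the files (of 7 listed) summed to between 21.4 and 32.6 normalized counts with DMSO and to between 22.0 and 39.6 with SD70, and Ptprc, which defines blood cells, had at most 2 counts. The 4 endothelial markers summed to between 56.5 and 66.2 with DMSO and to between 62.6 and 78.1 with SD70, and the groups overlapped for both lists. Most of the endothelial sum was Cdh5, and Pecam1, Kdr and Tek had at most 4 counts in any sample. These are bulk libraries, in which fewer cells carrying a transcript and less transcript per cell cannot be told apart.

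To determine whether SD70 altered the family, the groups were compared by edgeR's quasi-likelihood test fitted to all genes, and a gene passed at a Benjamini-Hochberg adjusted p under 0.01. Of the 9 members tested, 3 passed, and all 3 were BH3-only genes. Bbc3 and Bid rose and Bmf fell, while none of the anti-apoptotic or effector members passed. The share of all 11552 tested genes that passed was 49.9%, with 25.8% higher and 24.2% lower, so 3 of 9 was not above the background of this comparison. With a log2 fold change of at least 1 required as well, 2 of the 9 members (Bbc3 and Bmf) were called against 5.9% of all tested genes. The call of Bbc3 at this threshold was lost, leaving Bmf alone, with glmTreat, which tests the change against the threshold itself, and with limma on log2(FPKM + 1). The median log2 fold change was 0.06 over the 9 members and -0.0043 over all tested genes.

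**Figure D1:**
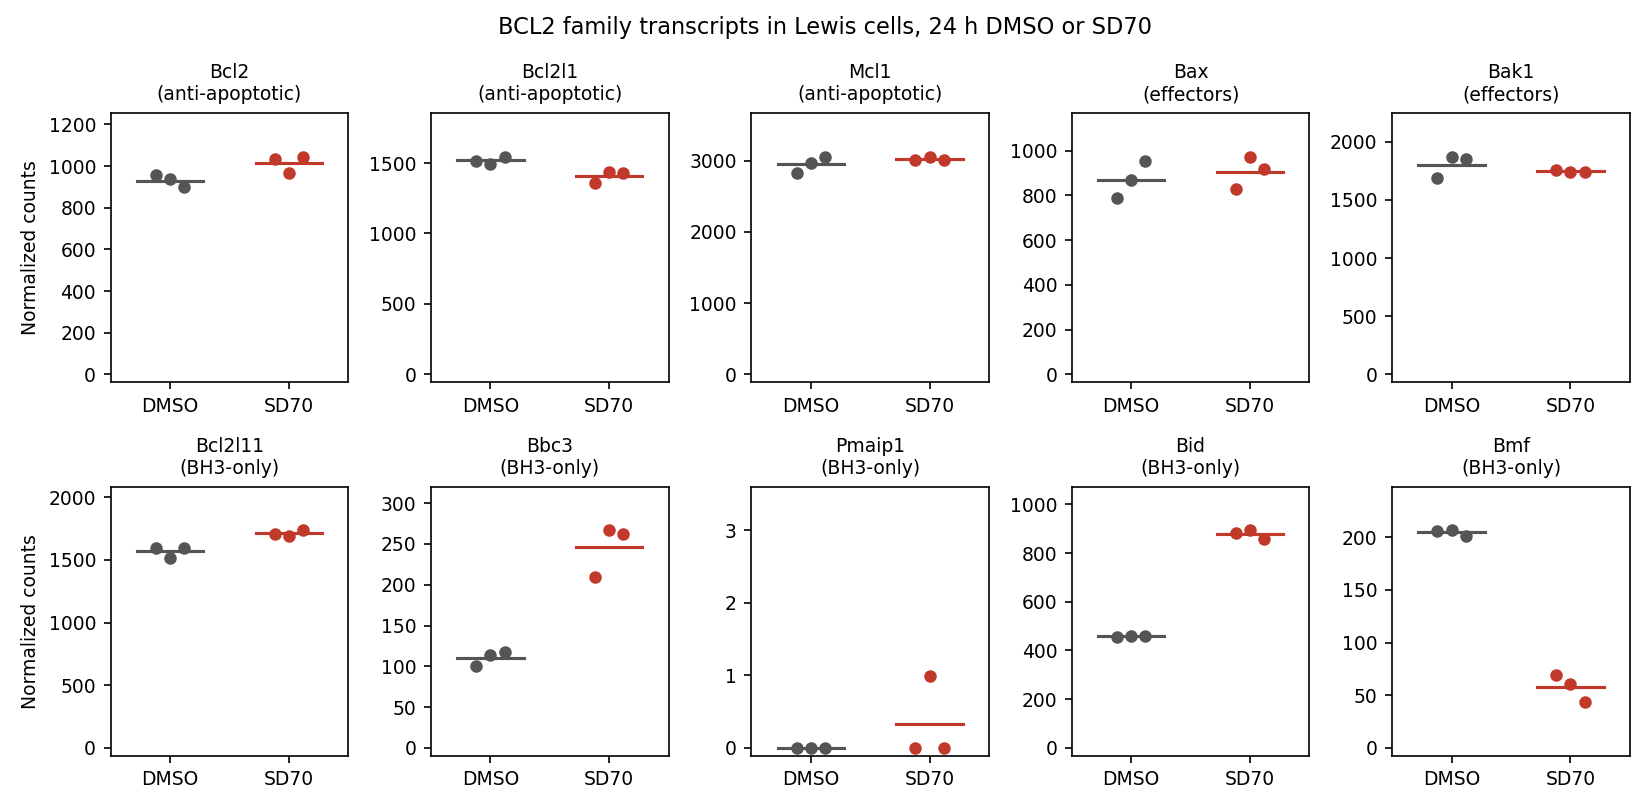
Normalized counts (vertical axis, from 0, with its own scale in each panel) of the 10 members in the 3 DMSO samples (grey) and the 3 SD70 samples (red). Points are samples and lines are group means. Bbc3 and Bid lay higher and Bmf lower in every SD70 sample, and Pmaip1 had a single count in 1 sample. By less, Bcl2 and Bcl2l11 also lay higher and Bcl2l1 lower in every SD70 sample, but these did not pass.

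Among the BH3-only members, Bmf changed most. BMF is held on the cytoskeleton in adherent cells and is known to be set free when cells lose attachment. Bmf (NCBI Gene 171543), on the minus strand of GRCm38 at chr2:118528757-118549687, had 211, 213 and 210 counts under DMSO but 68, 61 and 40 under SD70. All 3 SD70 samples were well below all 3 DMSO samples, and the SD70 samples differed more from one another in proportion. Bmf fell from 205 ± 2.87 to 57.9 ± 12.7 normalized counts (SD, n = 3 each), or by 1.81 ± 0.136 (standard error) on the log2 scale (edgeR, adjusted p = 1.25e-13). This is a 3.51-fold decrease with a 95% interval from 2.90 to 4.26. Only 1.11% of the tested genes had a larger absolute log2 fold change. The SD of Bmf with DMSO was smaller than the 14.5 expected from counting alone at its mean of 211 counts, whereas the standard error comes from a fit that shares information across genes.

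Bbc3 showed the opposite change. PUMA, its product, binds every anti-apoptotic member and is a classical target of p53. Bbc3 (NCBI Gene 170770), on the plus strand at chr7:16308393-16318205, had 103, 117 and 122 counts under DMSO, against 206, 269 and 238 under SD70. The groups did not overlap, and SD70 sample 1 was the lowest of its group. The means were 110 ± 8.79 and 246 ± 32.1 normalized counts (SD, n = 3 each), and Bbc3 rose by 1.15 ± 0.116 (standard error) on the log2 scale (edgeR, adjusted p = 1.51e-10). This is a 2.23-fold increase with a 95% interval from 1.89 to 2.62. Of all tested genes, 3.96% had a larger absolute log2 fold change.

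Bid rose almost as much. BID links death receptors to mitochondria, because caspase-8 cleaves it into the fragment that activates BAX and BAK1. Bid (NCBI Gene 12122), on the minus strand at chr6:120891930-120916853, had 468, 472 and 478 counts under DMSO, against 870, 901 and 780 under SD70. The groups were far apart. The 3 DMSO samples were nearly equal, closer than the SD of 21.7 expected from counting alone at their mean of 473 counts. The means were 458 ± 1.36 and 879 ± 18.7 normalized counts (SD, n = 3 each), and the rise was 0.94 ± 0.0650 (standard error) on the log2 scale (edgeR, adjusted p = 1.42e-14). This 1.92-fold increase had a 95% interval from 1.75 to 2.10, and the intervals of Bid and Bbc3 overlap and both span the fold threshold. Bid shares 628 of its 3550 exonic bases with Bcl2l13, which lies on the opposite strand, and the sources used here do not say that counting used the strand. Bcl2l13 itself stood at 939 ± 26.3 and 883 ± 45.2 normalized counts (SD, n = 3 each), with a log2 fold change of -0.09 that did not pass (adjusted p = 0.200 from edgeR).

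Bcl2l11 and Pmaip1 completed the BH3-only members. Bcl2l11 (NCBI Gene 12125, plus strand, chr2:128126038-128162547), which encodes the potent activator BIM, had 1636, 1559 and 1666 counts under DMSO, against 1682, 1705 and 1581 under SD70, and its estimated counts were not whole in any sample. After normalization its SD70 samples lay just above its DMSO samples, at 1713 ± 23.7 against 1569 ± 47.3 (SD, n = 3 each). The log2 fold change of 0.13 (standard error 0.0529) did not pass (adjusted p = 0.0380 from edgeR). Pmaip1 (NCBI Gene 58801), which encodes the MCL1-binding protein NOXA, had 0 counts in 5 samples and 1 count in SD70 sample 2. A count of 0 allows up to 3 counts, or between 0.176 and 0.196 CPM (counts scaled to the library total) depending on the sample, and this limit covers counting error only. Pmaip1 was at or under this limit in every sample, so no fold change is given, and a fall could not have been detected at this depth.

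The sequences upstream of 4 BH3-only genes are shown because Bbc3, Bid and Bmf were the members that passed, and Bcl2l11 is the tested BH3-only gene that did not pass. Each line is the 250 bases before an annotated RefSeq start site of GRCm38.p6, written 5′ to 3′ along the gene. Capitals mark matches, on either strand, to TGTTTAC (the forkhead site bound by FOXO factors). Of the windows of Bbc3 and Bcl2l11, only those shown held this match. The windows lie at chr7:16310011-16310260 (plus strand, the second of 3 start sites of Bbc3), chr2:128125788-128126037 (plus strand, the first of 2), chr6:120916825-120917074 (minus strand) and chr2:118549687-118549936 (minus strand, the first of 3).
Bbc3: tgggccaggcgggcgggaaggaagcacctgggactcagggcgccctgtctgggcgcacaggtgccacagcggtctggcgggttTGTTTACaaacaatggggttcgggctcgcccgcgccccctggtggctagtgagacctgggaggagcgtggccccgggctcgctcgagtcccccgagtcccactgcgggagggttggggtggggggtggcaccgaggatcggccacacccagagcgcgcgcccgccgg
Bcl2l11: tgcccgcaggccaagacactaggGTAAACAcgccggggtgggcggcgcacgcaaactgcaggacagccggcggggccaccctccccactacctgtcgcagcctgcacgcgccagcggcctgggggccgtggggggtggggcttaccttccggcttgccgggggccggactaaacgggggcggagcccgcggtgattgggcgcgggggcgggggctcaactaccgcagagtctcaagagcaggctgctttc
Bid: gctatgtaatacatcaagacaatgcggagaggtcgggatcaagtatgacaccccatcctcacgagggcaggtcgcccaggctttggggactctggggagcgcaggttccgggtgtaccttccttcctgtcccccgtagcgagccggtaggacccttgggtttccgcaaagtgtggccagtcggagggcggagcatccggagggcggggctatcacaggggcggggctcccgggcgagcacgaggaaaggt
Bmf: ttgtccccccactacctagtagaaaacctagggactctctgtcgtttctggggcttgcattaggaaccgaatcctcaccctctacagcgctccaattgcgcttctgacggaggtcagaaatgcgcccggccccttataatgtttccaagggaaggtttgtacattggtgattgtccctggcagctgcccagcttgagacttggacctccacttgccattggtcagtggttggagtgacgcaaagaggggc

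The search used 16 such windows from 9 of the members, and the later 2 windows of Bbc3 overlap. Windows on chromosome 18, where Pmaip1 lies, were left out, so Pmaip1 was not searched. Besides TGTTTAC, they were searched on both strands for TGATGNAA (the ATF4-CHOP type of site), TGACGT (the core of the cyclic AMP response element) and CACGTG (an E-box), and no window held more than 1 match. TGTTTAC matched in 1 of the Bbc3 windows, from 167 to 161 bases before the start, and as its reverse complement in 1 of the Bcl2l11 windows, from 227 to 221 bases before the start. Of all 32851 windows of this length, 3.17% held it. TGACGT matched before Bcl2 (6.47% of all windows), and CACGTG before Bax and before the third start site of Bbc3 (6.02% of all windows). TGATGNAA, present in 3.45% of all windows, matched in 0 of the 16, which says only that these letters are not in these windows. These matches are descriptions of sequence and are not evidence of binding.

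The anti-apoptotic members stayed near their DMSO levels. Bcl2 (NCBI Gene 12043, minus strand, chr1:106538178-106714274) had 983, 964 and 937 counts under DMSO, against 1020, 973 and 951 under SD70. After normalization the SD70 samples were all slightly higher, with a log2 fold change of 0.13 (95% interval from 0.0051 to 0.25, adjusted p = 0.0666 from edgeR). Bcl2l1 (NCBI Gene 12048, minus strand, chr2:152780668-152831728) had 1555, 1537 and 1612 counts under DMSO, against 1335, 1446 and 1302 under SD70. Its normalized SD70 samples were all below its DMSO samples, with a log2 fold change of -0.11 (95% interval from -0.22 to 0.00070, adjusted p = 0.0806 from edgeR). Mcl1 (NCBI Gene 17210, plus strand, chr3:95658788-95663176), a short-lived protein controlled largely by its turnover, had 2906, 3055 and 3187 counts under DMSO, against 2967, 3081 and 2739 under SD70. The groups overlapped at 2952 ± 113 and 3028 ± 27.5 normalized counts (SD, n = 3 each), and the log2 fold change was 0.04 (95% interval from -0.06 to 0.14, adjusted p = 0.542 from edgeR), with a sign that changed when library totals alone were used for scaling.

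Both effectors overlapped between the groups. Bax (NCBI Gene 12028, minus strand, chr7:45461697-45466898) had 809, 894 and 994 counts under DMSO, against 815, 981 and 833 under SD70, and varied more between samples than the other tested members that did not pass. Its log2 fold change was 0.06 (95% interval from -0.08 to 0.20, adjusted p = 0.488 from edgeR), and the sign turned when DMSO sample 1 was left out. Bak1 (NCBI Gene 12018, minus strand, chr17:27019810-27029009) had 1730, 1929 and 1927 counts under DMSO, against 1729, 1755 and 1581 under SD70, and a log2 fold change of -0.05 (95% interval from -0.16 to 0.06, adjusted p = 0.478 from edgeR). Across the 6 tested members that did not pass, the 95% bounds ran from -0.22 to 0.25, that is, at most a 1.16-fold decrease or a 1.19-fold increase. Exons of Bak1, Bax and Bcl2 also share bases with Ggnbp1, Gm45808 and D630008O14Rik, so their counts may hold some reads of those genes.

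Of the 9 tested members, 6 had SD70 samples that did not overlap the DMSO samples, against 64.4% of all tested genes. These were Bbc3, Bid, Bmf, Bcl2, Bcl2l1 and Bcl2l11.

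To compare levels between genes, the deposited FPKM values were used, which are scaled by transcript length and library size. With DMSO, the effectors were the most abundant members, with Bax at 68.2, 75.1 and 80.1 FPKM and Bak1 at 60.3 ± 3.36 FPKM (SD, n = 3). Mcl1 followed at 54.4 ± 1.97 and Bcl2l1 at 39.2 ± 0.800 FPKM, whereas Bcl2 was at 8.19 ± 0.278 FPKM (SD, n = 3 each). Of the BH3-only members, Bcl2l11 and Bid were above Bcl2 and the others below it, in the order Bcl2l11 (20.5 ± 0.725 FPKM), Bid (16.2 ± 0.116 FPKM), Bbc3 (4.10 ± 0.381 FPKM) and Bmf (2.82 ± 0.0493 FPKM, SD, n = 3 each), with Pmaip1 listed at 0. No neighbours in this order had overlapping samples with DMSO.

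With SD70, Bid at 30.5 ± 0.596 FPKM stood above Bcl2l11 at 22.1 ± 0.469 FPKM in every sample (SD, n = 3 each), the reverse of their order with DMSO. Bbc3 reached 8.87 ± 1.16 FPKM and overlapped Bcl2 at 8.77 ± 0.456 FPKM (SD, n = 3 each). Bmf was at 0.783 ± 0.168 FPKM (SD, n = 3). The other neighbours kept separate samples, and the upper 4 places went to Bax, Bak1, Mcl1 and Bcl2l1 in both groups.

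**Figure D2:**
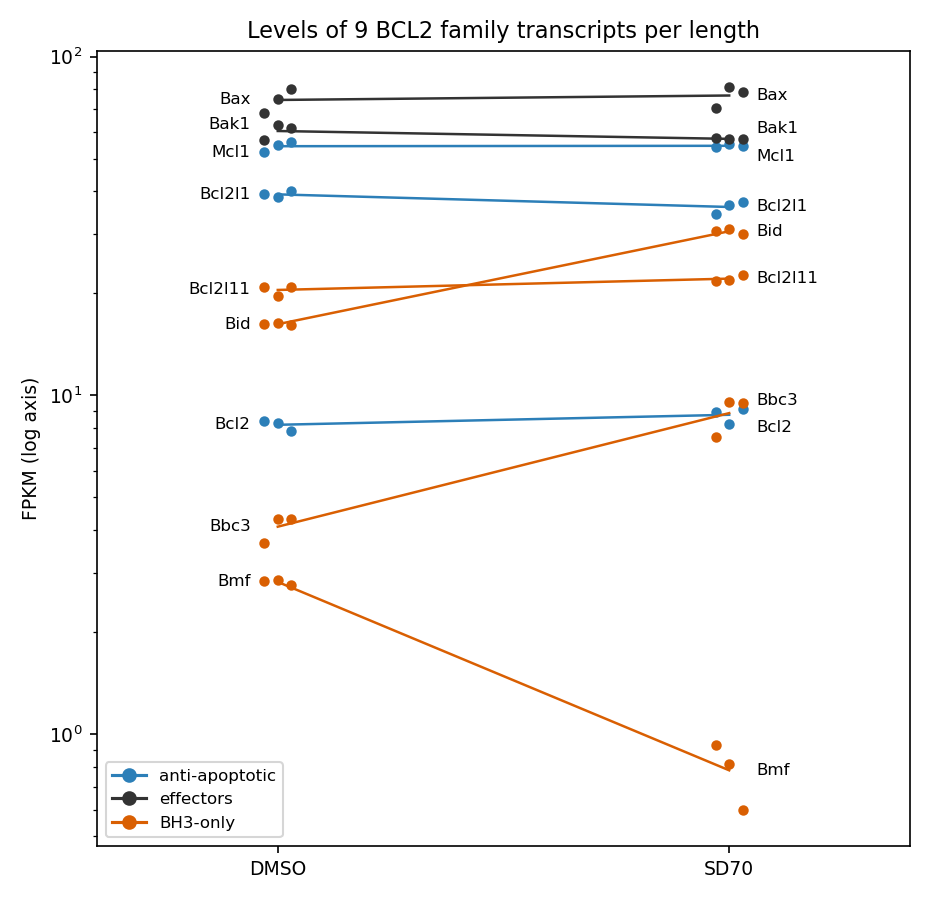
FPKM (vertical log axis) of 9 members with DMSO and SD70. Points are samples, lines join group means and colours give the role; Pmaip1, listed at 0 in 5 samples, is left out. The lines of Bid and Bcl2l11 cross, Bbc3 climbs to the level of Bcl2, and Bmf drops to 0.783 FPKM.

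Summed by role, the FPKM of the 5 BH3-only members was 43.6, 43.2 and 44.1 under DMSO but 60.8, 63.4 and 62.7 under SD70. The sum of the 3 anti-apoptotic members was 99.9, 102 and 104 with DMSO and 97.3, 99.8 and 101 with SD70, so the 2 groups overlapped. Hence the ratio of BH3-only to anti-apoptotic FPKM was between 0.425 and 0.436 with DMSO and between 0.622 and 0.635 with SD70. These sums hold only the members. With the other listed genes of both roles added (Bad and Bik, Bcl2l2 and Bcl2a1a), a choice made after seeing the data, the groups were closer but did not overlap, at 0.535 ± 0.00651 under DMSO and 0.676 ± 0.0166 under SD70 (SD, n = 3 each). The ratio of effector to anti-apoptotic FPKM overlapped, at 1.32 ± 0.0643 under DMSO and 1.35 ± 0.0364 under SD70 (SD, n = 3 each). Within the BH3-only sum, Bid made up between 36.5% and 37.9% in the DMSO samples and between 47.7% and 50.3% in the SD70 samples, and Bmf 6.46% ± 0.183 and 1.26% ± 0.287 (SD, n = 3 each). These sums weigh transcripts, not proteins, and no test was applied to them.

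**Figure D3:**
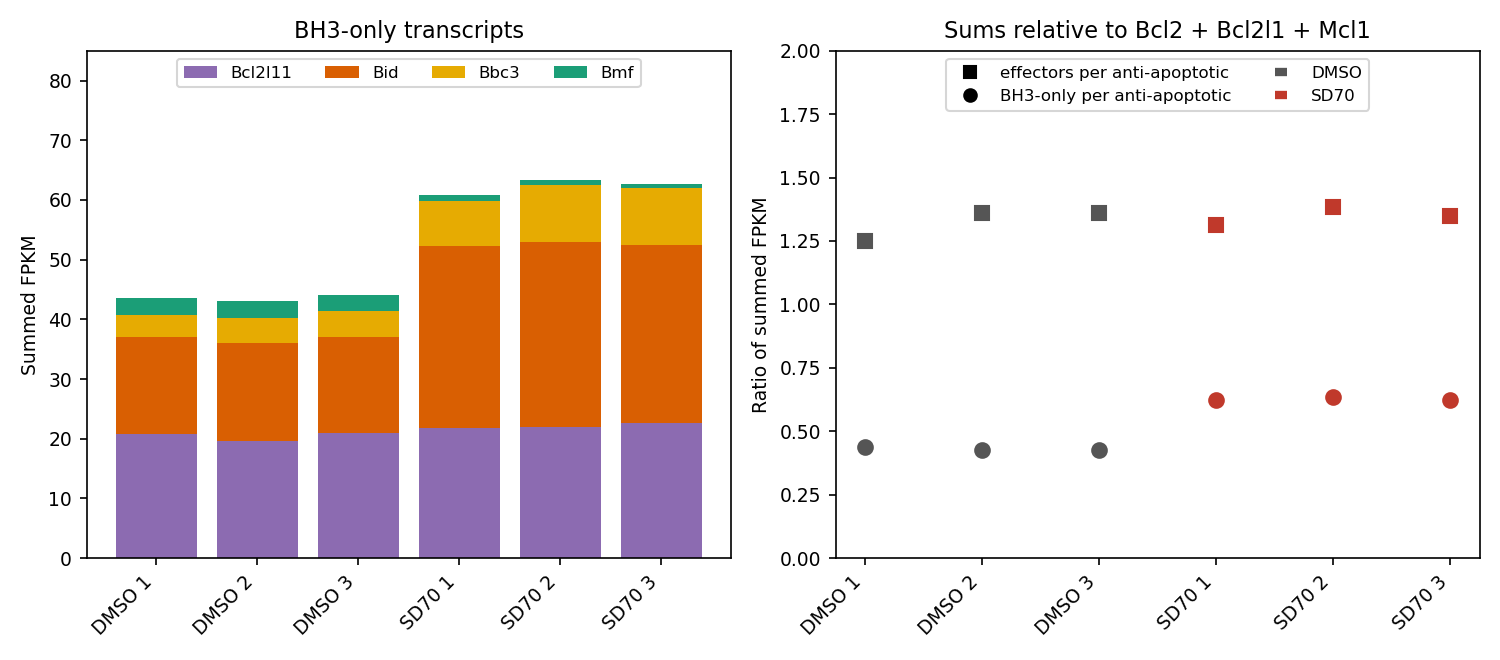
Left, summed FPKM of the BH3-only members by sample, stacked by gene (Pmaip1, at most 0.02 FPKM, is left out). Right, FPKM of the effectors (squares) and of the BH3-only members (circles) divided by the summed FPKM of Bcl2, Bcl2l1 and Mcl1 in the same sample, DMSO in grey and SD70 in red. Only the BH3-only ratio separates the groups, with all SD70 samples at or above 0.622.

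The rest of the family was then examined with a list of 15 further BCL2 family genes. Of these, 10 were in the files, 7 were tested, 3 fell and 0 rose, where 24.2% of all tested genes fell and 49.9% passed in either direction, so the share that passed was not above the background. Bok, an effector-like relative of Bax and Bak1, had 195, 234 and 210 counts under DMSO, against 100, 111 and 117 under SD70, and fell by 0.86 ± 0.117 (standard error) on the log2 scale (edgeR, adjusted p = 9.71e-08). Bnip3 and Bnip3l, atypical members known as mitophagy receptors and hypoxia-induced genes, were the most abundant of the list. Bnip3 fell from 6890 ± 153 to 3048 ± 404 normalized counts (SD, n = 3 each; log2 fold change -1.18, adjusted p = 4.58e-10 from edgeR), and Bnip3l from 8754 ± 245 to 5606 ± 394 (SD, n = 3 each; log2 fold change -0.64, adjusted p = 7.32e-13 from edgeR). The anti-apoptotic Bcl2l2 had a log2 fold change of 0.12 and the BH3-only Bad of -0.19, and neither passed (adjusted p = 0.0888 and 0.0785 from edgeR).

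**Figure D4:**
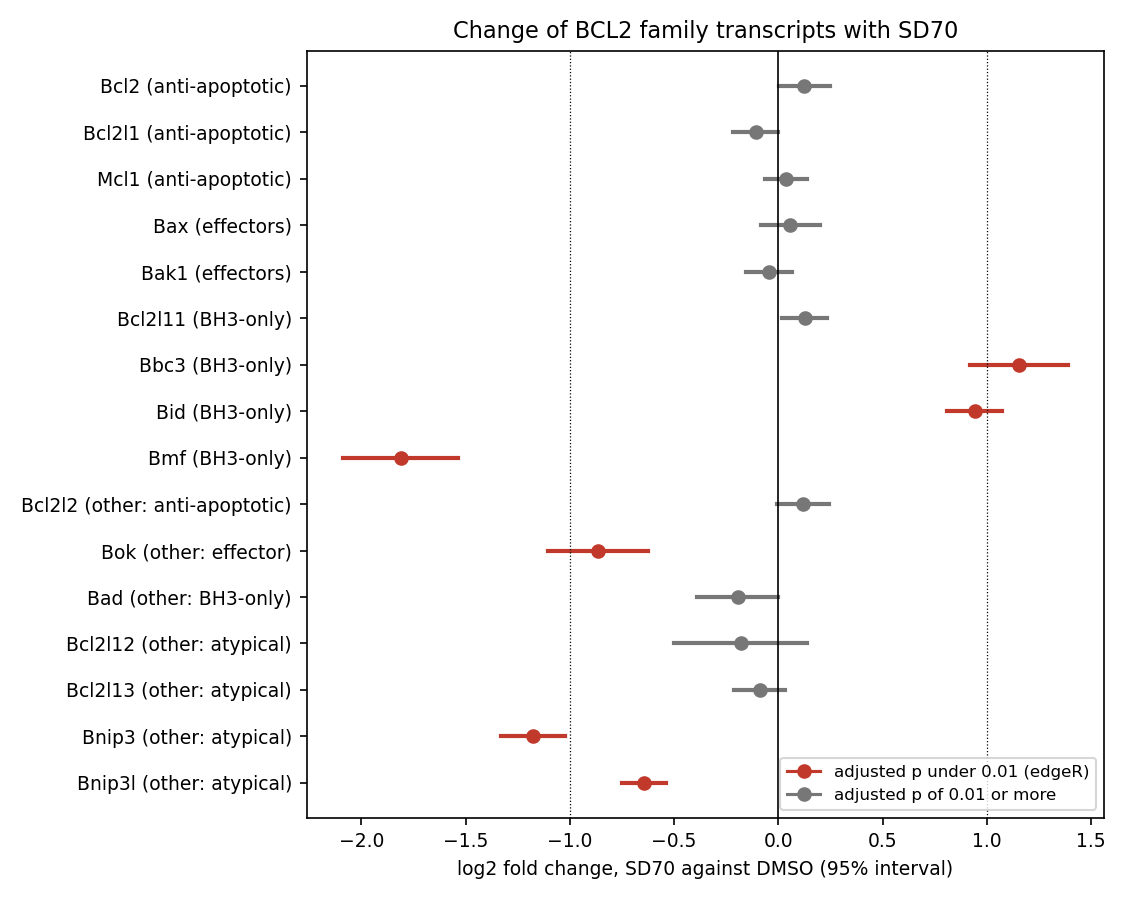
Log2 fold change of SD70 against DMSO (horizontal axis) with its 95% interval for the 9 tested members and 7 further family genes; dotted lines mark the fold threshold. Red marks an adjusted p under 0.01. Bbc3 and Bid lie to the right, Bmf, Bok, Bnip3 and Bnip3l to the left, and the anti-apoptotic members near 0.

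Downstream of the mitochondria, the apoptosome and caspase list held 10 genes. Of the 9 tested, 5 fell and 2 rose, against 24.2% lower and 25.8% higher among all tested genes. None changed by a log2 fold change of 1 or more, and the median was -0.23 against -0.0043 over all tested genes. Casp6, an executioner caspase, fell from 553 ± 18.8 to 298 ± 42.3 normalized counts (SD, n = 3 each; log2 fold change -0.89, edgeR adjusted p = 3.97e-11). Apaf1, the scaffold of the apoptosome, fell by 0.41 on the log2 scale (adjusted p = 6.66e-08 from edgeR), and Casp9 by 0.29 (adjusted p = 0.00282 from edgeR). Fadd, the adaptor of death receptors, rose by 0.54 (adjusted p = 8.50e-05 from edgeR). Casp8, which encodes the protease that cleaves BID, had a log2 fold change of 0.05 and did not pass (adjusted p = 0.502 from edgeR).

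The inhibitors of apoptosis and the proteins released from mitochondria had 8 tested genes of 9, of which 2 rose and 2 fell, a share like the 49.9% of all tested genes that passed. Birc3, an inhibitor of apoptosis and a known NF-kB target, rose from a mean of 353 ± 21.8 to 790 ± 23.2 normalized counts (SD, n = 3 each; log2 fold change 1.16, edgeR adjusted p = 5.66e-16). Birc5 (survivin) fell by 0.22 (adjusted p = 8.37e-04 from edgeR) and Birc6 by 0.19 on the log2 scale (adjusted p = 0.00200 from edgeR). Htra2 rose by 0.20 (adjusted p = 0.00349 from edgeR). Among the 3 VDAC channels of the outer membrane, Vdac1 fell by 0.39 (adjusted p = 1.19e-08 from edgeR) and Vdac3 rose by 0.25 on the log2 scale (adjusted p = 9.58e-05 from edgeR), whereas Vdac2, known to bind BAK, had a log2 fold change of 0.03 (adjusted p = 0.577 from edgeR).

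Transcription factors known to drive BH3-only genes were also listed. Of the 9, 8 were tested, 5 rose and 1 fell, against 25.8% higher and 24.2% lower among all tested genes, and their median log2 fold change was 0.89. Atf3 and Ddit3 (CHOP) had the largest rises, with log2 fold changes of 3.74 and 2.66 (adjusted p = 3.72e-29 and 2.37e-28 from edgeR). Atf4 rose from a mean of 7829 ± 1005 to 31300 ± 703 normalized counts (SD, n = 3 each; log2 fold change 2.00, edgeR adjusted p = 1.57e-13). Trp53, which encodes p53, rose by 1.04 (adjusted p = 1.35e-16 from edgeR). Foxo3 rose by 0.75 (adjusted p = 1.59e-14 from edgeR), and Jun fell by 0.32 on the log2 scale (adjusted p = 4.31e-06 from edgeR). The part of any of these factors in the changes of Bbc3, Bid or Bmf was not tested.

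**Figure D5:**
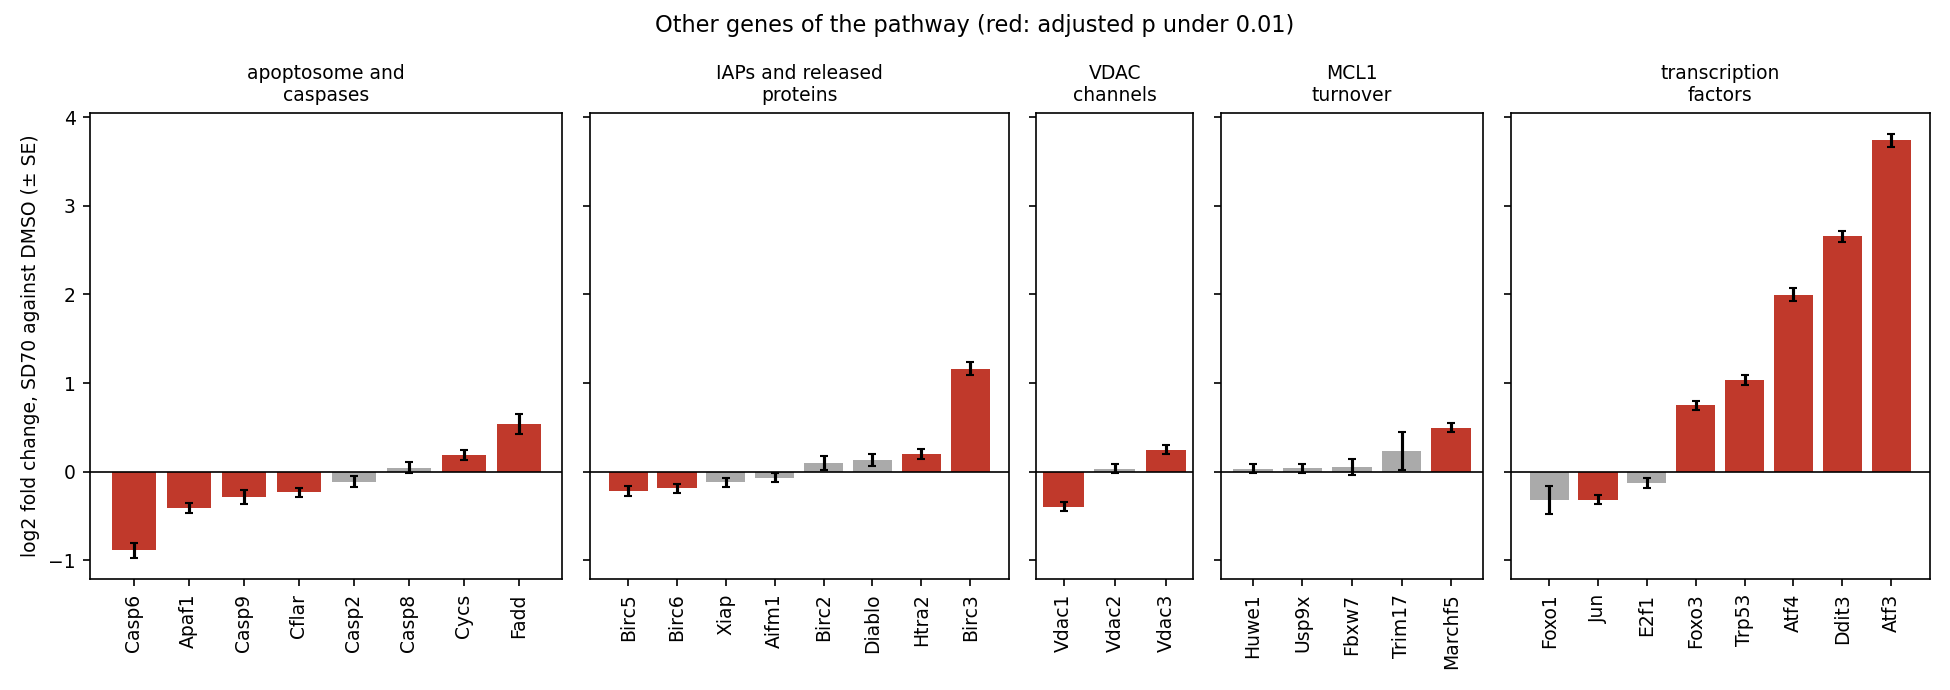
Log2 fold change of SD70 against DMSO (vertical axis, bars from 0, error bars are the standard error) for tested genes of 5 further lists, without genes that are not reported here. Red bars have an adjusted p under 0.01. The largest rises are those of Atf3, Ddit3 and Atf4, and the largest fall is that of Casp6 at -0.89.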

How the data were processed

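RNA-seq of 6 samples (3 DMSO, 3 SD70) was analysed, grouped by the sample labels. The authors aligned clean BGISEQ-500 reads to GRCm38.p6 with HISAT and deposited an expected count per gene and sample, not normalized. The submitters' processing notes also name StringTie 1.3.3b and the build mm8, without a role, and the counting tool is not given in the sources used here. The second deposited value was taken as FPKM, since the header names no unit and the lengths it implies lay 163 to 195 bases (median) below those of genes with a single transcript.

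Expected counts, of which 8.84% to 9.28% per sample were not whole, were rounded. Genes kept by filterByExpr (11552 of 16081) were scaled by TMM (factors 0.984 to 1.02) before edgeR 4.0.16 (R 4.3.3) fitted quasi-likelihood models with robust dispersions (glmQLFit, glmQLFTest), with Benjamini-Hochberg adjustment over all tested genes. Normalized counts are scaled to the mean effective library size. Standard errors were derived from the F statistic and 95% intervals from the t distribution. The steps were tested on simulated data first. Gene positions come from GENCODE M21 (GRCm38).

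Alternatives used DESeq2 1.42.0, limma 3.58.1 on log2(FPKM + 1) and log2(FPKM + 0.1), other scalings and filters, an adjusted p under 0.05, glmTreat, the replicate number as a block, and each sample left out. The text names all 10 members and up to 4 genes per further list by absolute log2 fold change among those that passed. Genes named outside this rule (Bcl2l2, Bad, Bcl2l13, Casp8, Vdac2, Foxo3, Jun, Huwe1, Usp9x, Bik, Bcl2a1a) and the markers were picked with their values known. The members and lists were chosen with earlier results of these data known. List symbols were matched by NCBI Gene identifier through RefSeq, or else by symbol, and 74 of 85 were found. Some genes of the lists enter the counts but are not reported here. Of the 6 within-group pairs of samples, none differed by as little as counting noise (chi-square per gene from 2.12 to 4.97).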

Additional observations from a re-analysis of the deposited data

How the results depend on the processing

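The count of 3 members that passed (Bbc3, Bid and Bmf) was kept in each of 14 alternatives, including each sample left out in turn, and an adjusted p under 0.05 added Bcl2l11 as the fourth. With the fold threshold, the members went from 2 to 1 (Bmf) on log2(FPKM + 1), a scale that understates changes of low genes, and to 1 (Bmf) with glmTreat, which tests whether the change exceeds the threshold. The corresponding counts over all genes went from 681 (380 higher, 301 lower) to 283 (202 higher, 81 lower) and to 221 (177 higher, 44 lower). Over the 14 alternatives per gene, log2 fold changes ranged from 0.95 to 1.26 for Bbc3, from 0.87 to 0.95 for Bid and from -1.96 to -1.10 for Bmf, and the largest adjusted p-values were 2.74e-06, 2.39e-08 and 9.32e-07 (limma). Signs changed for 2 members that had not passed: Mcl1 at -0.0014 with library totals alone, and Bax, which gave -0.0084 without DMSO sample 1 and at most 0.12 when another sample was dropped. In the FPKM order, leaving out SD70 sample 2 or 3 exchanged Bbc3 and Bcl2.

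With the replicate block, 5913 genes passed (5767 without it), 692 with the fold threshold, and 3 and 2 members, with no member's call changed. Deviations of same-numbered samples correlated across all 11552 tested genes at -0.07, 0.05 and 0.11, and across 9623 genes with a mean of at least 100 normalized counts at 0.18, 0.25 and 0.16, where each sample correlated best with its own number. The labels do not say what a number marks, so the samples were not treated as pairs.

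Depth limits Pmaip1 most, and Bmf rests on a mean of 56.3 counts with SD70. Precision elsewhere is limited by 3 samples per group.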

Other observations

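Of the listed genes that control MCL1 protein turnover, 5 of 6 were tested and 1 rose, where 25.8% of all tested genes rose and 49.9% passed in either direction. Marchf5, a mitochondrial ubiquitin ligase listed in the files under a symbol altered to a date and matched by its identifier, was at 1805 ± 71.0 with DMSO and 2550 ± 95.5 normalized counts with SD70 (SD, n = 3 each; log2 fold change 0.50, edgeR adjusted p = 5.09e-10). Huwe1 and Usp9x, a ligase and a deubiquitinase of MCL1, had log2 fold changes of 0.03 and 0.04 and did not pass (adjusted p = 0.569 and 0.503 from edgeR).

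Several family genes were nearly silent. Bik, a BH3-only gene, had 2, 3 and 3 counts with DMSO and 0 in each SD70 sample. Bcl2a1a, an anti-apoptotic gene known from blood cells, had 2 counts in SD70 sample 2 and 0 in the other samples.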
